A study of Arabidopsis thaliana with 12 samples.

Results

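The 139 probe sets described here differed between the ethylene-overproducing Arabidopsis thaliana mutant eto1-4 and its wild type Col-0, kept most of that difference, or exceeded it, when the mutant was grown with AVG, and lay nearer to the wild type when it was grown with compound 9393 or 9370. They were chosen from a table of 22810 probe sets, of which 22746 were no array controls and 14660 had a signal above 100 on at least 2 arrays. The group means of log2(signal + 22.4) set the choice. The difference between eto1-4 and Col-0 had to be at least 1, with the same sign in both replicates. The share of that difference kept under a treatment, called the share of the eto1-4 shift below, had to be at least 70% with AVG and under 60% with 9393 and with 9370. A share of 0% is the Col-0 level and a share of 100% the level of untreated eto1-4. The change in eto1-4 was met by 862 probe sets, the AVG limit by 279 of these, the 9393 limit by 153 and the 9370 limit by 140, from which EXPB1 was left out. Of the 139 members, 95 were lower and 44 were higher in eto1-4 than in Col-0. Every value of Col-0, eto1-4, AVG, 9393 and 9370 took part in the choice, so those levels are a description with no test. The 2 arrays of plants given compound 7303 entered only through the signal minimum, which 138 members met without them and 1 unnamed member met through 1 of them.

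Whole seedlings of ecotype Col-0 were grown for 3 days in the dark, and total RNA was hybridised to 12 single-colour Affymetrix arrays, 2 for each of 6 groups. The groups were Col-0 and eto1-4 without a compound, and eto1-4 on medium holding 10 µM of 9393, 9370, 7303 or AVG. All treated plants thus carried the eto1-4 mutation. Col-0 given a compound is not analysed here, and the 3 number-coded compounds are known here by code only.

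Ethylene is made from methionine by way of ACC, the product of ACC synthase. ETO1 marks one class of ACC synthases for breakdown, so that eto1 mutants make too much ethylene and show, in the dark, the short hypocotyl and root and the tight apical hook known as the triple response. AVG, aminoethoxyvinylglycine, inhibits enzymes that use pyridoxal phosphate. ACC synthase is one of them, and aminotransferases that feed auxin synthesis are others.

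Before the member values, some properties of the arrays need to be known. The spiked-in bacterial control RNA dap read at least 149 on 8 arrays and at most 7.99 on the other 4, which were replicate 1 of Col-0, eto1-4, 9393 and 9370. Both arrays of 7303 and both of AVG carried the spike, so a value on arrays without it cannot be had for these treatments. Signal for 25S ribosomal RNA was 208 and 266 in Col-0 and between 494 and 12724 on the 10 arrays of eto1-4 plants. Replicate 1 of eto1-4 stood apart in the 7 listed seed reserve and late embryogenesis genes, whose summed signal was 22180 there and 5636 to 8644 on the other 11 arrays. All 40 listed photosynthesis genes passed the signal filter, with summed signals of 145426 and 147372 under 7303, 160405 and 164984 under AVG, and 164887 to 265866 on the other 8 arrays. The labels do not say whether replicates came from separate cultures, so p-values measure the spread between these arrays, which may be technical. In whole seedlings, fewer cells of a type and less RNA per cell cannot be told apart. The part of the spike, the ribosomal RNA, the seed genes and the photosynthesis genes in the results below was not tested, except where values within the spiked arrays are given.

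The members differed from Col-0 in eto1-4 by a median of 1.20 on the log2 scale among those lowered and by 1.48 among those raised. The difference was under 1.5 in 95 of the 139 members. It was 2 or more in 21, of which 13 were raised. Mean signals in Col-0 ran from 2.10 to 15483, with a median of 434. All 4 arrays of eto1-4 and AVG lay on one side of all 6 arrays of Col-0, 9393 and 9370 in 100 members, or 71.9%, while 5.48% of the tested probe sets were separated that way. The choice of members used these arrays. A single gene was named by 65 members, 46 lowered and 19 raised, and these were 65 different genes. Another 3 members named several genes, and 71 were not listed with a gene in the annotation used here and are unnamed.

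**Figure D1:**
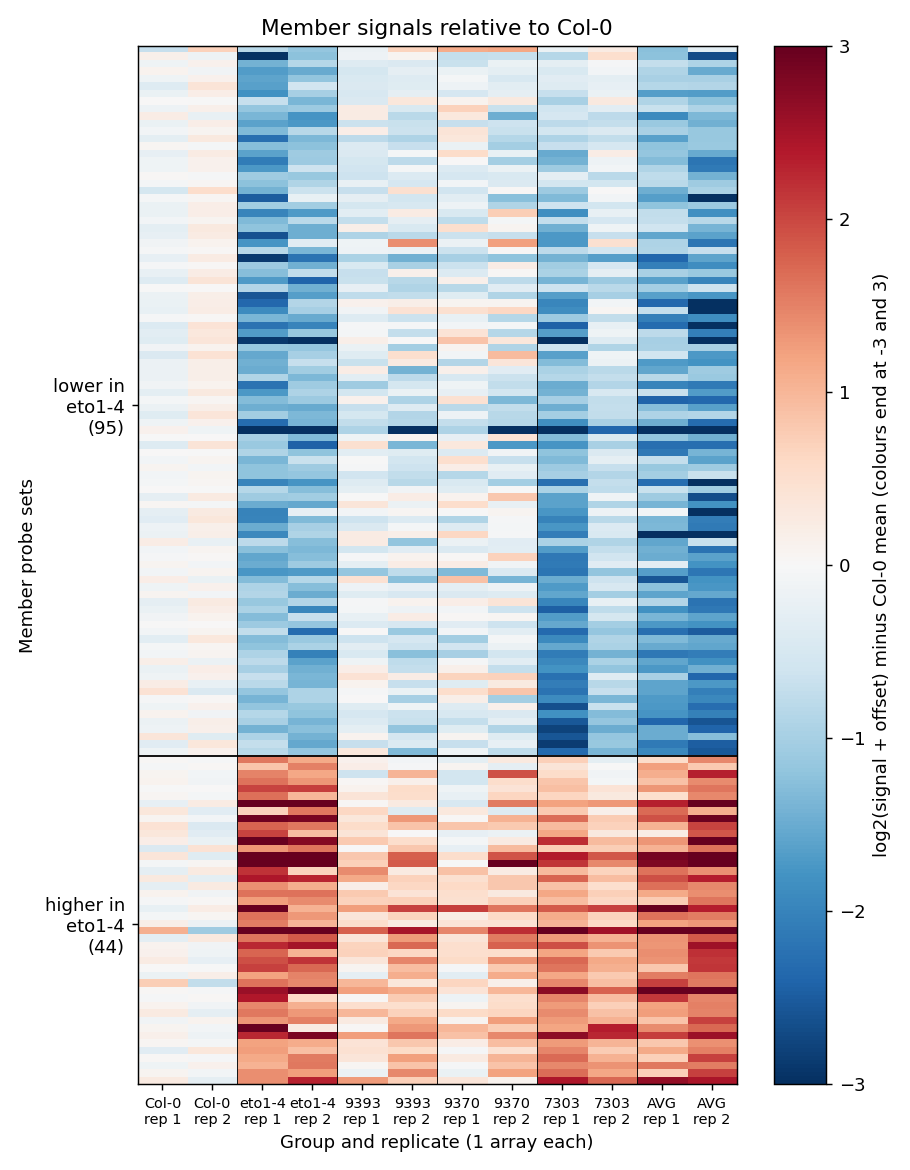
Signals of the 139 members on each of the 12 arrays (columns), as log2(signal + 22.4) minus the mean of the 2 Col-0 arrays, with 95 lowered members above the line and 44 raised members below it, ordered by the share kept under 7303. The eto1-4 and AVG columns are mostly alike in colour and the 9393 and 9370 columns mostly paler, as the choice asked of the group means. Single arrays depart from this, and both AVG arrays reached a share of 70% in 94 members. Replicate 1 of 7303 is mostly darker than replicate 2.

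Among the raised members, the largest difference of any named gene was that of AT2G39980. Its signal was 347 and 202 in Col-0, 4913 and 5297 in eto1-4, 486 and 980 with 9393, 395 and 1046 with 9370, 1483 and 1030 with 7303, and 2098 and 3334 with AVG. Both AVG arrays lay below both eto1-4 arrays but above all others, and the 7303 arrays lay near the higher arrays of 9393 and 9370. The difference from Col-0 was 4.15 on the log2 scale in eto1-4 and 3.21 with AVG. AT5G50335 read 30.7 and 52.2 in Col-0, 548 and 688 in eto1-4, 42.1 and 53.5 with 9393, 23.1 and 163 with 9370, 123 and 133 with 7303, and 293 and 786 with AVG. Its 9393 arrays were within or just above the Col-0 range, and only replicate 2 of AVG reached the eto1-4 level.

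UPB1 encodes UPBEAT1, a basic helix-loop-helix transcription factor that acts on peroxidase genes and on the balance of reactive oxygen species in the root tip. It read 393 and 313 in Col-0, 1774 and 2634 in eto1-4, 874 and 1112 with 9393, 659 and 995 with 9370, 2366 and 1759 with 7303, and 1544 and 2181 with AVG. The 3 groups eto1-4, 7303 and AVG overlapped, 9393 and 9370 overlapped below them, and Col-0 was lowest. The share of the UPB1 shift kept was 56.2% with 9393, 45.4% with 9370, 96.7% with 7303 and 90.8% with AVG. COR27, a cold-regulated gene that takes part in the circadian clock, read 189 and 122 in Col-0, 439 and 839 in eto1-4, 400 and 262 with 9393, 204 and 166 with 9370, 923 and 554 with 7303, and 1062 and 927 with AVG. Both AVG arrays thus exceeded both eto1-4 arrays, and COR27 was the only raised member with an AVG share over 130%, at 137%. AT4G25580 read 122 and 115 in Col-0, 830 and 1172 in eto1-4, 309 and 280 with 9393, 164 and 258 with 9370, 905 and 455 with 7303, and 1203 and 1122 with AVG. Its eto1-4 and AVG arrays overlapped, and replicate 2 of 7303 fell between them and the 9393 arrays.

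AT1G62770 read 1232 and 1267 in Col-0, 5174 and 5344 in eto1-4, 1349 and 1837 with 9393, 1143 and 1660 with 9370, 2338 and 1659 with 7303, and 3163 and 3859 with AVG. AVG left it between eto1-4 and every other group, with a share of 71.4%, close to the limit of the choice. AT5G02540 was 3.18 higher on the log2 scale in eto1-4 than in Col-0. Its AVG arrays read 450 and 1986 against 2253 and 1246 in eto1-4, so that its AVG share of 74.8% rested on replicate 2. The other 3 of the 10 named members with the largest positive differences were AT4G33980, AT5G45310 and AT1G14890. Their differences in eto1-4 lay between 1.47 and 1.54, with AVG shares of 90.5% to 119% and 7303 shares of 50.1% to 79.4%. The largest positive difference of all belonged to the unnamed probe set 255905_at, at 4.89, with 131 and 12.1 in Col-0, 2474 and 1830 in eto1-4 and 926 and 1581 with AVG.

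**Figure D2:**
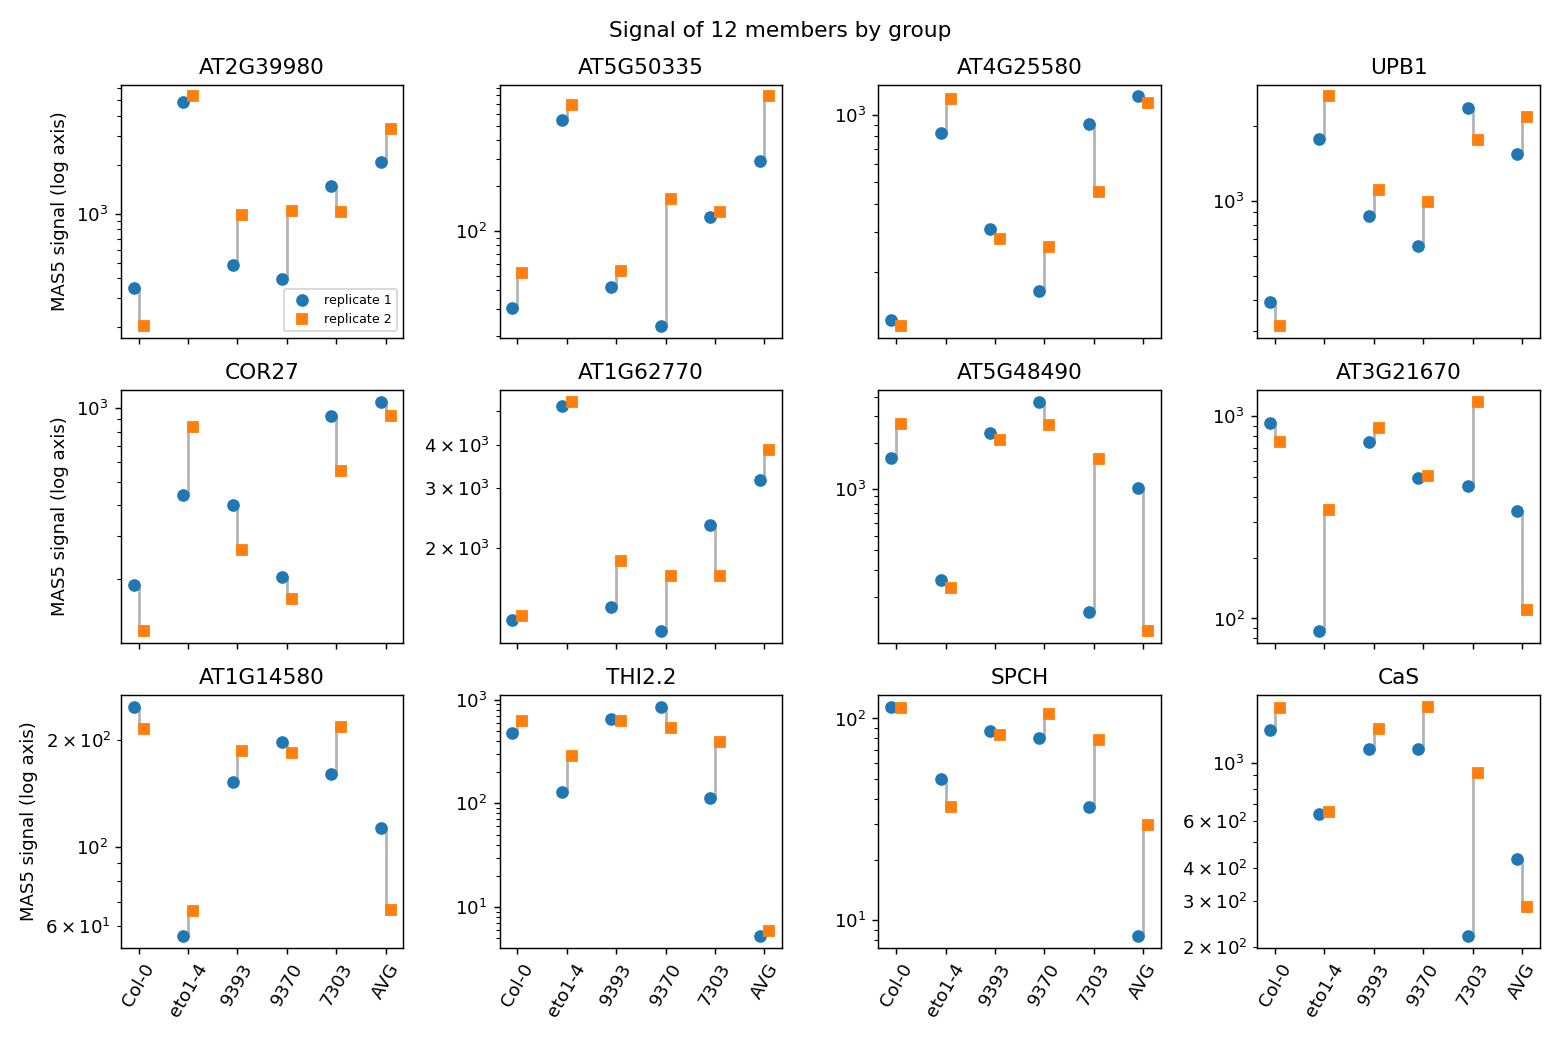
MAS5 signal (log axis) of 12 named members on each array, with replicate 1 as a circle and replicate 2 as a square and a line between the 2 arrays of a group. UPB1, COR27 and AT4G25580 stay high with 7303 and AVG, and THI2.2 reads 5.21 and 5.90 with AVG.

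Among the lowered members, AT5G48490 had the largest named difference in eto1-4, at -2.98 on the log2 scale. It read 1605 and 2644 in Col-0, 256 and 227 in eto1-4, 2324 and 2083 with 9393, 3717 and 2598 with 9370, 159 and 1578 with 7303, and 1014 and 119 with AVG. All 4 arrays of 9393 and 9370 lay within or above the Col-0 range. Under 7303 and under AVG 1 array was low and the other high, with AVG shares of 33.8% in replicate 1 and 130% in replicate 2. AT3G21670 encodes NPF6.4, a member of the NRT1/PTR transporter family. It read 924 and 751 in Col-0, 86.3 and 344 in eto1-4, 747 and 881 with 9393, 496 and 506 with 9370, 453 and 1185 with 7303, and 341 and 110 with AVG. AVG overlapped with eto1-4 and 7303 spanned the Col-0 range, so that its share was 93.4% with AVG and 8.39% with 7303.

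AT2G22930 read 145 and 210 in Col-0, 4.69 and 20.3 in eto1-4, 80.2 and 49.7 with 9393, 76.0 and 62.6 with 9370, 51.9 and 40.02 with 7303, and 15.6 and 43.2 with AVG. Its eto1-4 mean of 12.5 lay below the offset of 22.4, as a group mean did in 6 members, and the size of such a difference depends on the offset. The other named members with the 10 largest negative differences were AT2G18210, AT5G03350, AT2G03750, AT1G70270, AT5G23400, AT1G14580 and AT4G22460, with differences of -2.05 to -1.57 and AVG shares of 75.1% to 129%. The unnamed probe set 250207_at had the largest negative difference of all, at -4.15, with 1809 and 1517 in Col-0 and 84.6 and 61.0 in eto1-4. It read 9.61 and 41.2 with AVG, below both eto1-4 arrays.

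THI2.2, a thionin of the small cysteine-rich defence peptides, had the highest AVG share of all members, at 309%. Its signal was 479 and 621 in Col-0, 127 and 283 in eto1-4, 656 and 617 with 9393, 856 and 529 with 9370, 113 and 394 with 7303, and 5.21 and 5.90 with AVG. Both AVG arrays lay far below both eto1-4 arrays, whereas both 9393 arrays were within or above the Col-0 range and the 7303 arrays spread around the eto1-4 range. The AVG mean of 5.55 was below the offset, so the size of the AVG difference, -4.34 against Col-0, depends on it. SPCH encodes SPEECHLESS, the basic helix-loop-helix factor that starts the stomatal cell lineage. It read 115 and 113 in Col-0, 50.3 and 36.4 in eto1-4, 86.4 and 83.1 with 9393, 80.3 and 105 with 9370, 36.4 and 78.2 with 7303, and 8.33 and 29.5 with AVG. AVG was again below eto1-4 on both arrays, with a share of 167%, and every SPCH signal was low on the scale of the array.

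CYP71B35, a cytochrome P450, read 182 and 169 in Col-0, 71.9 and 66.8 in eto1-4 and 95.0 and 51.8 with AVG, with shares of 46.7% with 9393, 43.0% with 9370 and 50.3% with 7303. In all, 10 members carried a gene symbol. The remaining 5 of them were picked after their values were seen, and all were lowered. CaS, a calcium-sensing protein of the thylakoid membrane, read 1338 and 1623 in Col-0, 640 and 653 in eto1-4, 219 and 918 with 7303, and 431 and 283 with AVG, an AVG share of 173%. Replicate 2 of 7303 lay above eto1-4 and replicate 1 below it. ATMYC1, a basic helix-loop-helix factor of trichome and root hair patterning, kept 80.4% with AVG and 80.9% with 7303. MSRB9, a methionine sulfoxide reductase, kept 96.9% and 45.1% in the same order. GH9B18, a glycosyl hydrolase of the endoglucanase family, kept 92.5% and 47.0%. AOP1, a 2-oxoglutarate-dependent dioxygenase of the family that modifies glucosinolate side chains, kept 78.4% and 28.1%.

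AVG means beyond untreated eto1-4 were more frequent among the lowered members. The AVG share was over 100% in 62 of 95 lowered members and in 17 of 44 raised members. Over all members that was 56.8%, against 15.4% of the other 722 probe sets with the same size of change in eto1-4. The choice asked for an AVG share of at least 70%, which favours such values among the members. The AVG share was over 130% in 37 lowered members and in 1 raised member (27.3% of members, 8.59% of the other 722). It was over 200% in 6, all lowered (4.32% and 1.11%). The named genes among these 6 were THI2.2, AT2G36145 at 223% and AT5G42760 at 201%, the last picked after its values were seen. Both AVG arrays reached 70% in 94 members, only replicate 2 in 37 and only replicate 1 in 8. The median share was 91.7% on replicate 1 of AVG and 119% on replicate 2, and replicate 2 had the higher share in 102 members, or 73.4%. Among the other 722 probe sets with the same size of change in eto1-4 this was 68%.

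With 9393 the median share over the 139 members was 25.6% on replicate 1 and 40.9% on replicate 2. With 9370 it was 14.7% and 33.98%. The 9370 share was the lower in 104 members, or 74.8%, against 69.4% of the other 722 probe sets. The share was at or under 0% in 13 members with 9393, all of them lowered in eto1-4, and in 27 with 9370, of which 22 were lowered. The replicate 1 arrays of both compounds lacked the spike and the replicate 2 arrays carried it. Measured only on the spiked arrays, with eto1-4 and Col-0 read from their own spiked arrays, the median share was 46.0% with 9393, 41.1% with 9370, 81.4% with 7303 and 108% with AVG. On the unspiked arrays it was 19.97% with 9393 and 9.64% with 9370. The change in eto1-4 was at least 1 on the spiked arrays in 115 members and on the unspiked arrays in 107. On the spiked arrays alone, 84 members kept an AVG share of 70% or more with both compounds under 60%.

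**Figure D3:**
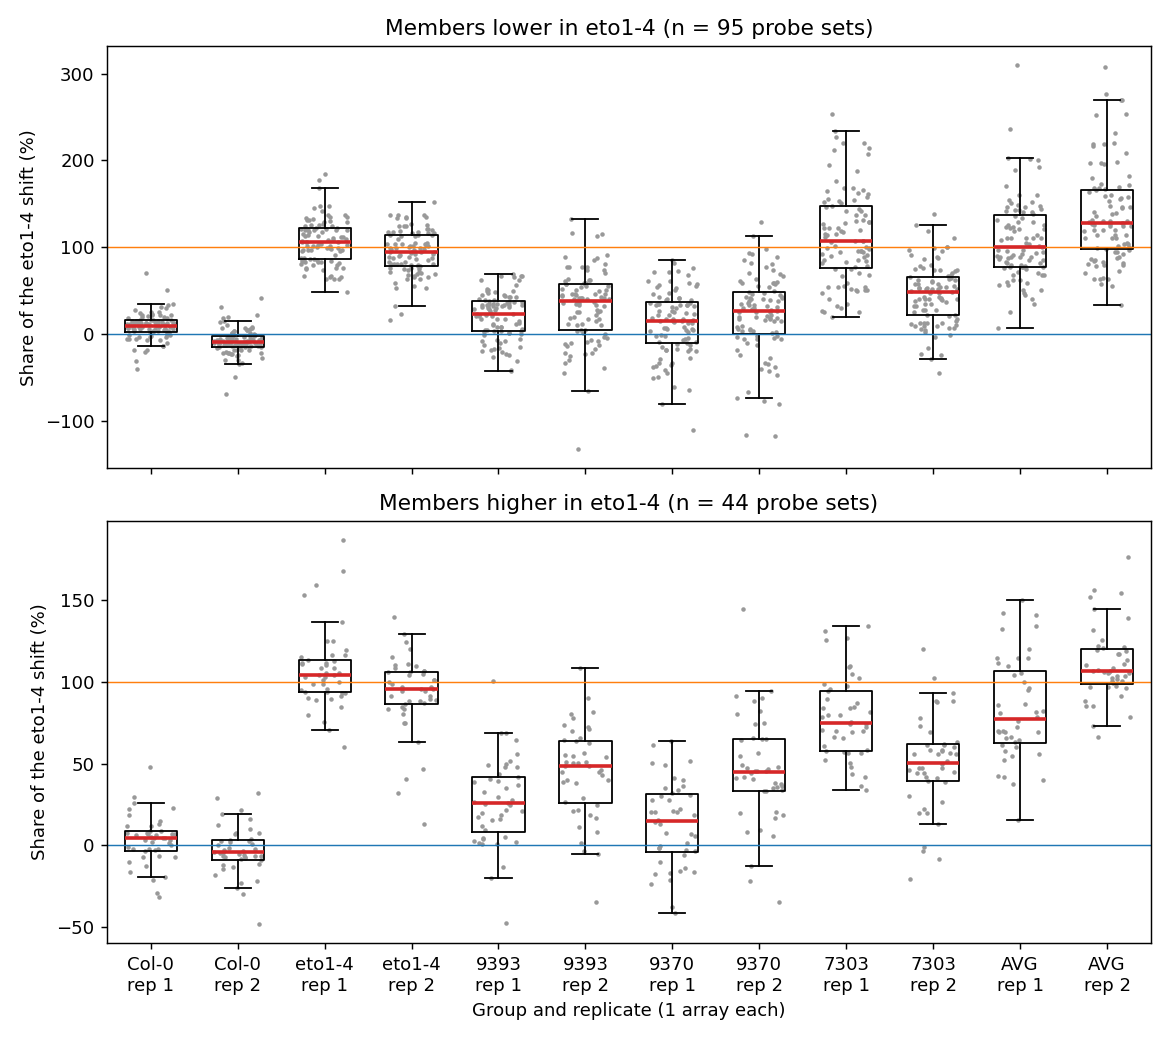
Share of the eto1-4 shift (%) kept on each array by the 95 lowered members (upper panel) and the 44 raised members (lower panel), where points are probe sets, boxes span the quartiles with whiskers to 1.5 times that range, and red bars are medians. The blue line is the Col-0 mean and the orange line the eto1-4 mean, and the lowered members reach medians of 101% and 128% on the AVG arrays against 107% and 48.1% on the 7303 arrays.

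Compound 7303 had no part in the limits on change and share, and it was given at the same dose and for the same time as AVG. The median share of the group means under 7303 was 69.9%, where the choice itself held 9393 and 9370 under 60%, and 68 members kept 70% or more, 23 kept from 60% to under 70% and 48 kept less than 60%. For the other 722 probe sets with an eto1-4 change of the same size, the median share under 7303 was 19.2%, and 20.9% of them kept 70% or more, against 48.9% of the members. The Col-0 and eto1-4 arrays behind these shares took part in the choice, so the comparison is a description. Both 7303 arrays lay past both Col-0 arrays on the eto1-4 side in 113 members, or 81.3%, against 49% of the other 722. Both lay on the Col-0 side of both eto1-4 arrays in 57 members, or 41%, against 77.4%. Both statements held for 47 members, which thus lay between the untreated mutant and the wild type on every array.

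The 2 arrays of 7303 were unlike each other over the members. The median share was 94.4% on replicate 1 and 49.7% on replicate 2, and replicate 1 had the higher share in 130 of 139 members, or 93.5%, against 69.5% of the other 722 probe sets. A share of 70% or more was reached by 101 members on replicate 1, by 29 on replicate 2 and by 26 on both. Another 26 members were under 60% on both arrays. The lowered members differed most, with medians of 107% and 48.1%, while the raised members had 75.05% and 50.7%. Both arrays carried the spike. The 25S ribosomal RNA signal was 5770 on replicate 1 and 494 on replicate 2, and its part in the difference was not tested.

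**Figure D4:**
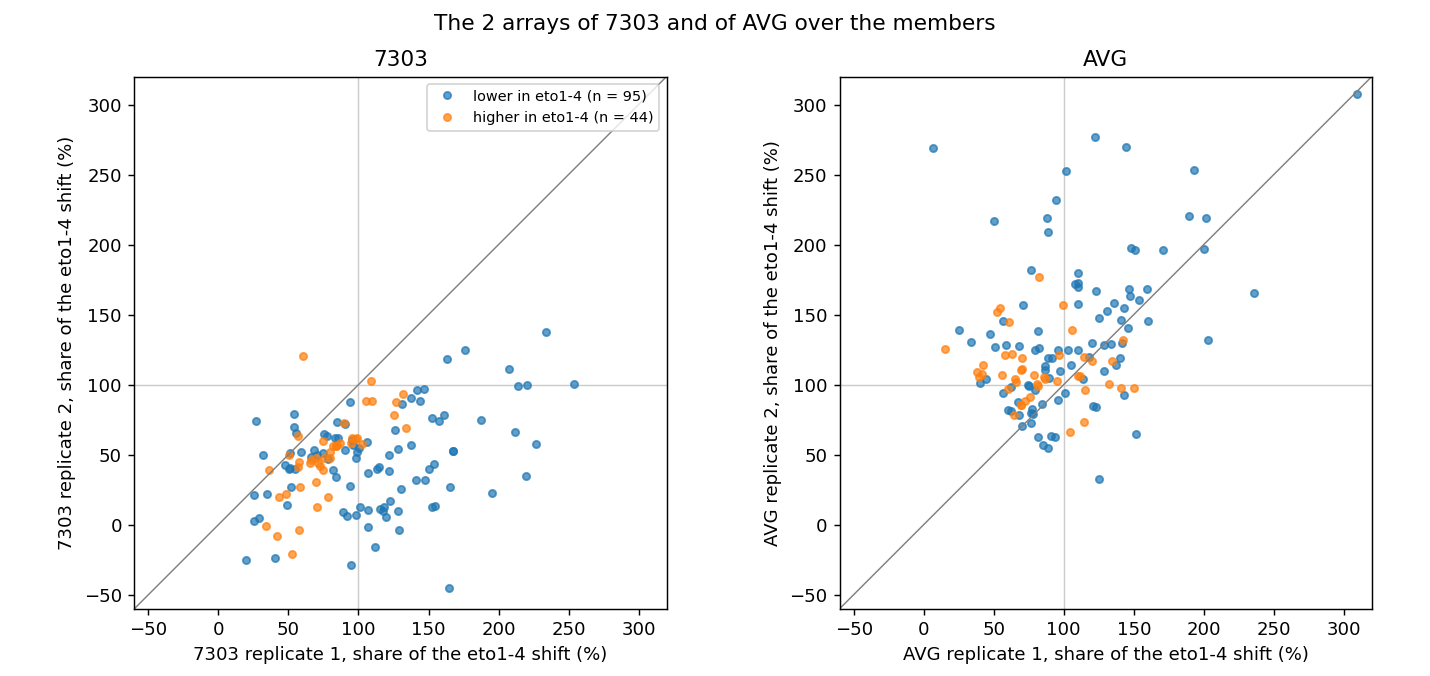
Share of the eto1-4 shift (%) on replicate 1 (horizontal) and replicate 2 (vertical) of 7303 (left) and of AVG (right), 1 point for each member, lowered members in blue and raised members in orange, with the line of equal shares. Under 7303, 130 of 139 points lie below the line, and under AVG 102 lie above it.

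Against untreated eto1-4, 6 of the 139 members differed under 7303 in limma's moderated test with Benjamini-Hochberg adjustment over all 14660 probe sets, and all 6 moved toward Col-0. That is 4.32% of the members, where 4.74% of all probe sets passed. AT1G62770 fell by 1.41 ± 0.25 (SE, n = 2 and 2, adjusted p = 0.0179 in limma) on the log2 scale, and AT2G39980 fell by 2.03 ± 0.47 (adjusted p = 0.0417 in limma). Both were raised in eto1-4. Among the lowered members, AT1G14580 rose by 1.33 ± 0.25 (adjusted p = 0.0210 in limma), from 56.0 and 65.9 in eto1-4 to 160 and 217, with 247 and 214 in Col-0 and 113 and 66.7 with AVG. AT5G24100 rose by 1.07 ± 0.22 (adjusted p = 0.0291 in limma), from 65.9 and 93.3 to 185 and 194, with 221 and 266 in Col-0. AT5G23400 rose by 0.91 ± 0.20 (adjusted p = 0.0365 in limma), from 88.6 and 80.6 to 173 and 185, with 271 and 366 in Col-0. The last was the unnamed probe set 251143_at, which rose by 0.98 ± 0.24 (adjusted p = 0.0479 in limma). For each of the 6, both 7303 arrays lay on the Col-0 side of both eto1-4 arrays, and for AT1G14580 and 251143_at replicate 2 reached the Col-0 range. At an unadjusted p under 0.05 there were 28 members, or 20.1%, against 23.8% of all probe sets, and in 112 members, or 80.6%, the difference pointed toward Col-0, against 87.7% of the other 722 probe sets. The choice used the same eto1-4 arrays and so favours that direction in both sets. The difference for AT1G62770 was -1.16 with replicate 1 of 7303 alone and -1.65 with replicate 2 alone. For AT2G39980 it was -1.77 and -2.28 in the same order. Fits with 1 array left out have a group of 1 array, so their counts of passing members are not given. How far the 6 calls rest on single arrays can thus not be judged.

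Against Col-0, no member passed the adjusted test under 7303, nor did any of the 14660 probe sets (background 0%), with a smallest adjusted p of 0.0515 in limma. At an unadjusted p under 0.05 there were 85 members, or 61.2%, against 23.7% of all probe sets. The Col-0 arrays took part in the choice, which favours differences from them, so the higher share among the members is not independent of it. UPB1 had the smallest unadjusted p of the named members, with a difference of 2.47 ± 0.29 (SE, n = 2 and 2, adjusted p = 0.0515 in limma). AT4G25580 differed by 2.24 ± 0.31, COR27 by 2.08 ± 0.35 and AT2G32640 by -1.28 ± 0.23, each with the same adjusted p. AT2G32640 read 212 and 215 in Col-0, 88.5 and 83.4 in eto1-4, 58.7 and 94.2 with 7303 and 48.9 and 45.4 with AVG. The next were AT1G18090, AT2G34620, AT1G56220, AT2G39980, AT2G39400 and AT1G04800, with adjusted p-values of 0.0516 to 0.0610 in limma. AT2G34620 was lower under 7303, at 87.2 and 247, than in eto1-4, at 259 and 294, and its 7303 share was 159%. AT1G04800 kept its shift on both 7303 arrays, at 612 and 576 against 464 and 679 in eto1-4 and 191 and 235 in Col-0. The adjusted counts turned on the setting, and were 0 to 79 members over the alternatives tried. The 79 came when the spread was estimated from the Col-0 and 7303 arrays alone. In that setting 3108 of all 14660 probe sets passed, or 21.2%, beside 79 of the 139 members. More probe sets thus passed over the whole array as well as among the members. The Col-0 arrays took part in the choice, so the higher share among the members is again not independent of it. Why the counts changed was not tested.

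The 7303 and AVG arrays were also compared directly. No member and none of the 14660 probe sets passed the adjusted test (background 0%, smallest adjusted p of 1 in limma), and 28 members had an unadjusted p under 0.05, or 20.1%, against 3.92% of all probe sets. The AVG side of this comparison took part in the choice. In 130 of the 139 members the 7303 mean lay on the Col-0 side of the AVG mean. The choice asked for a high AVG share and set no limit on the 7303 share, so it favours that direction. The matching count for the other probe sets with the same size of change in eto1-4 is not given here. The count of 130 is thus a description and does not show a difference between the treatments. THI2.2 had the largest difference, 3.08 ± 0.49 higher with 7303 than with AVG (SE, n = 2 and 2, unadjusted p = 8.01e-05, adjusted p = 1 in limma). AT1G14580 was 0.93 ± 0.25 higher and AT2G04570 1.22 ± 0.28 higher with 7303. AT2G04570 read 2915 and 3892 in Col-0, 947 and 1687 in eto1-4, 2087 and 2929 with 7303 and 1058 and 1038 with AVG, so that AVG stayed in the eto1-4 range and 7303 overlapped with Col-0. AT3G51000, raised in eto1-4, was alike in the other direction, with 456 and 481 in Col-0, 854 and 1388 in eto1-4, 624 and 464 with 7303 and 1128 and 823 with AVG. UPB1 differed between 7303 and AVG by 0.15 ± 0.29, AT2G39400 by 0.05 ± 0.27 and ATMYC1 by -0.01 ± 0.25, each smaller than its standard error. With 2 arrays a group these values do not show that the treatments act alike.

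Few members matched the gene lists made for this tissue and treatment. Matching used the symbols and synonyms of probe sets that named 1 gene. The 74 members that named no single gene could match none, and only 10 members carried a symbol. Absence from a list thus does not show that a member lies outside that pathway. Of 21 gene lists, 4 held a member, and each held 1: THI2.2 for defence, CYP71B35 for cytochromes P450, AT3G21670 for nutrient and sugar transport, and COR27 for gibberellin, cytokinin, brassinosteroid and abscisic acid. No member was among the 5 tested genes of ethylene perception and signalling, the 3 of methionine and ethylene synthesis, the 11 of auxin response and transport, or the 40 of photosynthesis. The 21 tested xyloglucan endotransglucosylases and expansins include EXPB1, which met the limits and was left out, and held no other. Of the 5 ethylene perception and signalling genes, 2 fell under 7303 against untreated eto1-4 in limma and none rose. RTE1, which keeps the ethylene receptor ETR1 active, fell by 1.74 ± 0.30 (SE, adjusted p = 0.0167 in limma), and ARL, an ARGOS-like gene, fell by 1.75 ± 0.37 (adjusted p = 0.0336 in limma). RTE1 read 226 and 119 in Col-0, 788 and 782 in eto1-4, 238 and 203 with 7303 and 268 and 465 with AVG, so that both treatments lay below eto1-4 on every array. Of the 40 photosynthesis genes, the plastid genes psbD and rbcL fell and none rose in that comparison, with a median difference of -0.57 where the median of all tested probe sets was -0.06. Of all 14660 probe sets, 1.74% fell. Only 1 pair of named members lay within 5 protein-coding genes of each other, AT1G15290 and AT1G15330, which were 3 steps apart and changed in opposite directions in eto1-4.

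The edges of the choice were close. The smallest change among the members was that of AT2G36145, at 1.003, and just outside lay AT4G27340, at 0.998. The lowest AVG share was that of AT5G24100, at 70.3%, and an unnamed probe set just outside had 69.7%. With 9393 the highest share was that of AT1G56300, at 59.5%, and the nearest outside, unnamed, had 60.2%. With 9370 an unnamed member had 57.6%, and AT2G21820 outside had 60.1%.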

How the data were processed

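The deposited table holds 1 linear signal intensity for every probe set on each of 12 arrays, made by the authors with MAS5 per the submitters' processing notes, which state no version. The trimmed mean of each array was 500.039 to 500.045, and precision is limited by having 2 arrays in each group. Intensities were converted to log2(signal + 22.4), the offset being the 20th percentile of all signals, so changes of dim genes are understated. Probe sets with a signal above 100 on at least 2 arrays were tested (14660) in limma (version 3.58.1, run in R 4.3.3), fitting a mean for each of 6 groups and letting the prior variance follow intensity, with 6 residual and 4.06 prior degrees of freedom and Benjamini-Hochberg adjustment over all of them. The steps were tested on simulated data. Gene names came from the platform's annotation, brought up to date with TAIR10.1. Members and lists were chosen with earlier results of these data known. Named members were the 10 largest positive and negative differences in eto1-4, the 10 smallest unadjusted p-values of each 7303 comparison, list members and those at the edges of the choice. Alternatives covered the offset, scaling, filter, variance model, replicate number, spike batch and leaving out each array.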

Additional observations from a re-analysis of the deposited data

How the results depend on the processing

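For the 12 named members with an unadjusted p under 0.05 for 7303 against untreated eto1-4, that difference was recomputed under each alternative and kept its direction. Its value could change only with the offset, the scaling, the spike batch or the eto1-4 and 7303 arrays used. The other alternatives could not test the direction. Among fits with 2 arrays in each group, AT5G23400 lost the threshold with no signal filter and with only the compared groups. AT2G39980 lost it in the first of these settings and AT5G24100 in the second. AT5G50335 gained it with an offset of 100, with only the compared groups and with either block. AT2G04570 gained it with the replicate number as a block. Single members were not recomputed for 7303 against Col-0 or AVG. Percentages in brackets are shares of all probe sets tested. Members passing for 7303 against untreated eto1-4 (6, 4.74%) numbered 3 with no signal filter (1.88%) and 10 with the spike batch as a block (5.76%). Against Col-0 (0) there were 13 with an offset of 100, 18 with median centring, 79 with only the compared groups fitted, 15 with the spike batch as a block and 35 on the spiked arrays, and 0 to 21 when 1 array was left out. Against AVG (0, 0%) there was 1 with an offset of 1 (0.00682%). The replicate number as a block gave 8 (6.86%), 16 (2.41%) and 0 (0%) in the same order. Fits on the spiked arrays alone, or with 1 array left out, have groups of 1 array, so their counts of passing members are not given. The correlation of the deviations of same-numbered arrays ran from -0.28 to 0.78 and was over 0.1 in 5 of 15 pairs of groups. All 5 were among Col-0, eto1-4, 9393 and 9370, whose replicate 1 lacked the spike. It was highest between 9393 and 9370, at 0.78. Same-numbered arrays thus did not pair across all groups, but some of these 4 groups varied together. Median centring moved the median of all tested differences between 7303 and Col-0 from -0.07 to 0.11. The median 7303 share was 49.7% to 94.4% with 1 array of 7303. The choice itself gave 174 members with an offset of 1 (132 shared), 95 with an offset of 100 (90 shared), 135 with quantile normalization (119 shared) and 110 to 216 when 1 array was left out, 216 without replicate 1 of eto1-4 (94 shared). On the spiked arrays alone it gave 152 (70 shared). The causes were not tested.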
